A study of Mus musculus with 9 samples.

Results

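A set of 9 genes of the bone morphogenetic protein (BMP) pathway were examined across depletion of the RNA exosome subunit EXOSC3 and of the putative RNA helicase DDX1. They are Bambi, Id1, Id2, Id3, Id4, Smad6, Smad7, Smad9 and Bmp4, chosen by name, and all 9 have a row among the 24318 genes of both deposited tables. RNA was sequenced from N2A cells, a mouse neuroblastoma line, transfected with scramble siRNA (siScramble), EXOSC3 siRNA (siEXOSC3) or DDX1 siRNA (siDDX1) with a lipid reagent. Each condition has 3 biological replicates, 9 libraries in all. The labels give the scramble cells as wild type and the others as EXOSC3 or DDX1 knockdown. All 3 conditions are labeled untreated apart from the siRNA, and no BMP ligand or inhibitor is named for any of them. One cell line was used, and the libraries are bulk RNA, in which fewer cells with a transcript and less of it per cell cannot be told apart.

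BMP ligands bind paired type I and type II receptor kinases, which phosphorylate SMAD1, SMAD5 and SMAD9 (also called SMAD8). These join SMAD4 in the nucleus and raise transcription of the Id genes, whose products bind E proteins and keep them from binding DNA. The same signal induces its own inhibitors. BAMBI is a pseudoreceptor without a kinase domain, and SMAD6 and SMAD7 block the receptors. In cells of the sympathoadrenal lineage, from which neuroblastoma arises, BMP signals are known for directing the noradrenergic program, and ID2 is known as an inhibitor of differentiation in neuroblastoma.

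Bambi and Id4 transcripts fell in both depletions, which were compared with the same scramble libraries. In siEXOSC3 cells, Id1 and Id2 rose. In siDDX1 cells no member rose, and Id3, Smad7 and Smad9 fell together with Bambi and Id4. With any 1 library left out, 3 of the 4 calls in siEXOSC3 held (Bambi, Id1 and Id2). In siDDX1, 2 of the 5 did (Id4 and Smad9). Bambi was at 61.9% ± 3.92 (SD, n = 3) of its scramble mean in siEXOSC3 and at 43.3% ± 12.4 (SD, n = 3) in siDDX1, where the SD covers the knockdown libraries alone.

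The members are protein-coding genes spread over 8 mouse chromosomes in NCBIM37, which is the sequence of mm9. Bambi lies on the plus strand of chromosome 18 from 3507955 to 3516402, and Smad7 on the plus strand of the same chromosome from 75527183 to 75555589. Id1 lies on chromosome 2 from 152561987 to 152563146 (plus strand), and Id2 on chromosome 12 from 25778666 to 25780957 (minus strand). Id3 lies on chromosome 4 from 135699412 to 135701670 (plus strand), and Id4 on chromosome 13 from 48356796 to 48359405 (plus strand). Smad6 lies on chromosome 9 from 63800953 to 63869866 (minus strand), Smad9 on chromosome 3 from 54559504 to 54605179 (plus strand) and Bmp4 on chromosome 14 from 47003195 to 47010344 (minus strand). The libraries do not keep strand, so a read in a stretch shared by both strands cannot be assigned to 1 of the genes. Id4 is overlapped on the other strand by the lincRNA gene A330033J07Rik, listed between 0 and 0.0658 FPKM. Bmp4 is overlapped on the other strand by the protein-coding gene Gm15217 and by Gm15222. Smad9 lies within 5 kb of Alg5 and Rfxap, and their values stand beside its own.

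The unit is FPKM, fragments normalized for transcript length and for library size. How the library size was set is not given in the sources used here. Each table holds 1 knockdown with the 3 scramble libraries. The tables were scaled separately, by factors of 1.00782 to 1.01188 for the same scramble library, so every comparison stays within a table and both use the same scramble libraries. The absolute depth is unknown. The depth relative to scramble replicate 1, from the size of a single fragment in low genes, was 0.824 to 1.21. Exosc3 was left at 15.5% ± 1.90 (SD, n = 3) of scramble in siEXOSC3, and Ddx1 at 24.4% ± 2.99 (SD, n = 3) in siDDX1. The untargeted transcripts stood at 100.5% (Ddx1 in siEXOSC3) and 97.3% (Exosc3 in siDDX1). Of 12 sympathoadrenal and neuroblastoma markers, 10 were tested, with Hand2 the highest. Their summed level was 404 to 452 FPKM in scramble and 572 to 608 FPKM in siEXOSC3, where 7 of the 10 rose (Stmn2, Dbh, Mycn, Tubb3, Chga, Isl1 and Phox2a). Of all genes tested there, 16.7% rose. In the siDDX1 table it was 401 to 447 FPKM in scramble and 374 to 429 FPKM in siDDX1, where limma called 0 of the 10 (1 higher and 2 lower at an unadjusted p under 0.05). Without siDDX1 replicate 3, calls included Mycn at a log2 fold change of 0.42 and Gata3 at -0.60 (limma adjusted p = 0.0225 and 0.00943). Fibroblast, macrophage and glial marker lists summed to at most 1.88 FPKM in any library. Of the 4 endothelial markers, Kdr was at 0 in every library and only Pecam1 was tested, and Pecam1 rose from 4.13 to 7.28 FPKM in siEXOSC3 (limma, adjusted p = 0.00827). The part of these markers in the member changes was not tested. One siDDX1 library, replicate 3, stands apart for several members, and values without it are given where it decides the call of a gene named here.

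The RefSeq promoter table (GRCm38.p6, a later build than the data) has an entry for 6 of the 9 members, among them Id2, Id3, Id4 and Smad9. These 4 are shown because Id3, Id4 and Smad9 fell together in siDDX1 and Id2 rose in siEXOSC3. Each sequence is the 250 bases before the annotated start, 5′ to 3′ on the strand of the gene. Capitals mark GGCGCC and GGAGCC (or its reverse complement GGCTCC), GC-rich letters known to be bound by SMADs of the BMP branch. No capital stretch overlaps another.
Id2 (chr12:25096093-25096342, minus strand): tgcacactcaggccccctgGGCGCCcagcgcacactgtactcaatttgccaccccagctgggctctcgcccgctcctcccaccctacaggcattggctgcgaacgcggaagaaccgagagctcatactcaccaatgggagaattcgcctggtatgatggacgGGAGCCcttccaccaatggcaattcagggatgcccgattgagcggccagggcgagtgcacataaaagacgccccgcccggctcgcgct
Id3 (chr4:136143572-136143821, plus strand): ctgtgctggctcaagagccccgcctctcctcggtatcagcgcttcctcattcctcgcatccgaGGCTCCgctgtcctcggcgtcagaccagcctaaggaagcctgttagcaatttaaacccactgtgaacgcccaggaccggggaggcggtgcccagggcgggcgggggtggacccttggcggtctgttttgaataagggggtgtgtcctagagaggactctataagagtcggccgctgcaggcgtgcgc
Id4 (chr13:48260866-48261115, plus strand): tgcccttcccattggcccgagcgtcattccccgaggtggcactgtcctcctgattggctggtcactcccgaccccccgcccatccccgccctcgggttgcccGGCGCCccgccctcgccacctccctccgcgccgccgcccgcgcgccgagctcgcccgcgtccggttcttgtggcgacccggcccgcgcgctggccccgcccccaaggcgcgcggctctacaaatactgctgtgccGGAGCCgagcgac
Smad9 (chr3:54755332-54755581, plus strand): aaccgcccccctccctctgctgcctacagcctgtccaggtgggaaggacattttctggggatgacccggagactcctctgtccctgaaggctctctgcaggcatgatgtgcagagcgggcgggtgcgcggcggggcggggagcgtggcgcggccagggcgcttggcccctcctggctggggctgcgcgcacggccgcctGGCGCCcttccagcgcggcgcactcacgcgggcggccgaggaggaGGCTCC

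Searched on both strands, GGCGCC occurred once in the windows of Id2, Id4 and Smad9 and in none of Id3, Smad6 and Bmp4. It was found in 9.59% of all 32851 promoter windows of this length. GGAGCC occurred in all 6 member windows and in 26.0% of all windows. The GC content of the windows was 62.8% for Id2 and for Id3, 75.6% for Id4 and 73.2% for Smad9, against a median of 52.4% over all windows. It was lower than in Id2 and Id3 in 78.3% of all windows, and lower than in Id4 in 96.4%. The shares over all windows were not matched for GC content, and these hexamers are rich in G and C. A match of letters is a description and not a bound site.

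The minimum for a test was an average of 1 FPKM across the 6 columns of a table, and log2(FPKM + 1) was then tested with limma. The scale understates the change of low genes. P-values were adjusted by Benjamini-Hochberg over all genes of the table, and a gene is called at an adjusted p under 0.05. With 3 libraries against 3, an exact permutation test of 1 gene cannot go below p = 0.1, which every member with separate groups reached. Of the 9 members, 8 passed the minimum in each table. In siEXOSC3, 2 members rose and 2 fell, where 16.7% of the 11242 genes tested rose and 15.7% fell. All 3 siEXOSC3 values lay below all 3 scramble values for 3 members and above them for 2, against 25.9% and 23.8% of all genes. These shares are near the background. The median log2 fold change of the 8 members was -0.13, and that of all genes tested -0.01.

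In siDDX1, 5 of 8 members fell, where 5.03% of the 11104 genes tested fell. No member rose (0 by limma, and 0 at an unadjusted p under 0.05), where 5.61% of all genes rose. The siDDX1 values lay below all scramble values for 6 members, against 17.8% of all genes, and above them for none, against 17.0%. The median log2 fold change of the members was -0.46, and that of all genes tested -0.00059. Ranked from the lowest fold change of all 11104 genes, Id4 stood at 18, Bambi at 22, Smad9 at 51 and Id3 at 198. Without scramble replicate 1, 2 members fell (Id4 and Smad9), where 0.522% of all genes fell. Without scramble replicate 3 the members were the same 2, where 0.586% of all genes fell. Leaving out siDDX1 replicate 1 or replicate 2 left 3 members called, where 1.96% and 1.56% of all genes fell, and leaving out scramble replicate 2 left 4, where 2.11% fell. Without siDDX1 replicate 3, 7 members fell, where 15.4% of all genes did.

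**Figure D1:**
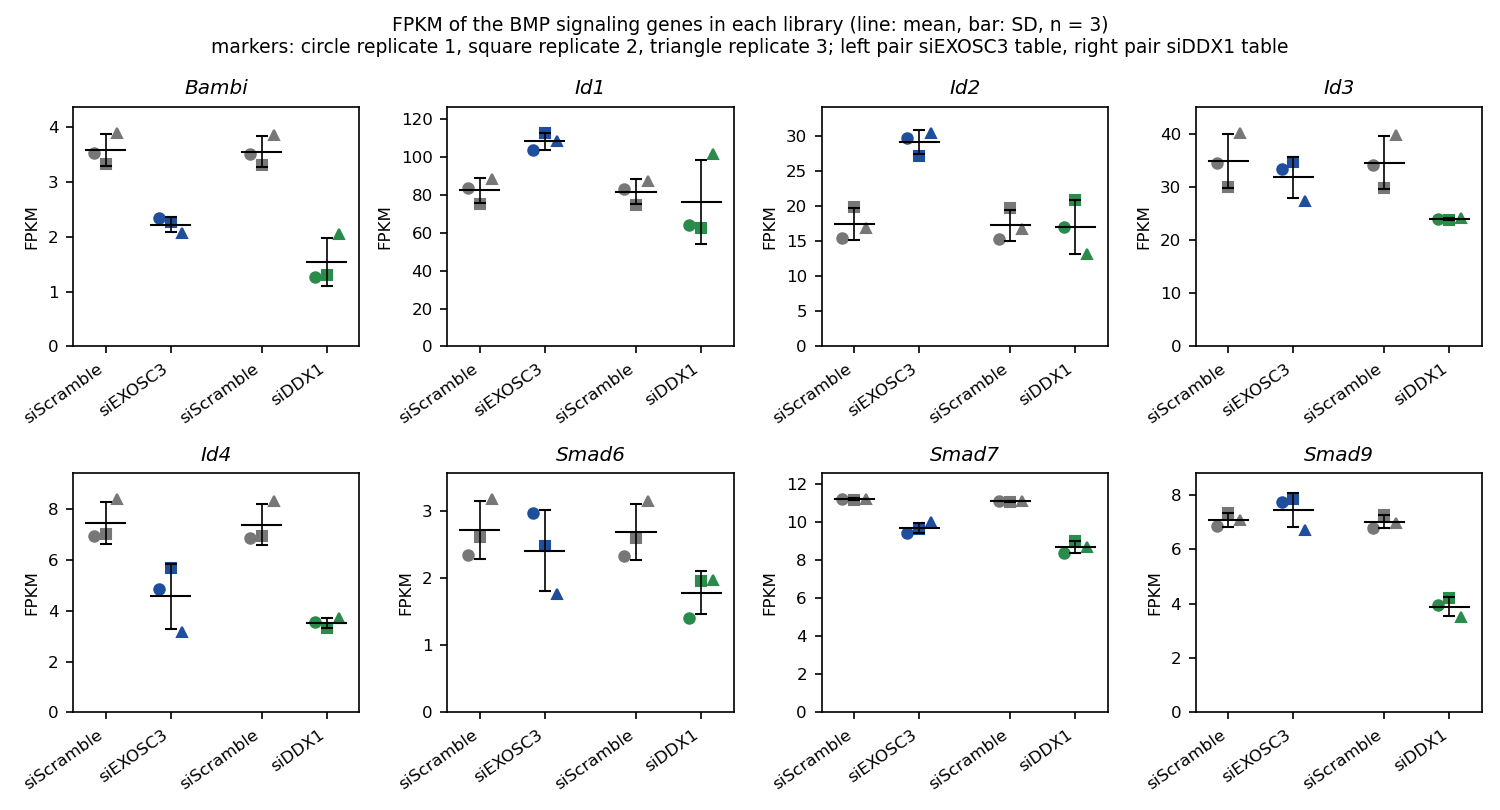
FPKM (linear axis from 0) of the 8 members above the minimum in each library. Gray points are scramble, blue siEXOSC3 and green siDDX1, each beside the scramble values of its own table, with the mean and SD of 3 libraries. Bambi and Id4 lie below scramble in both depletions, whereas Id1 and Id2 lie above it in siEXOSC3.

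**Figure D2:**
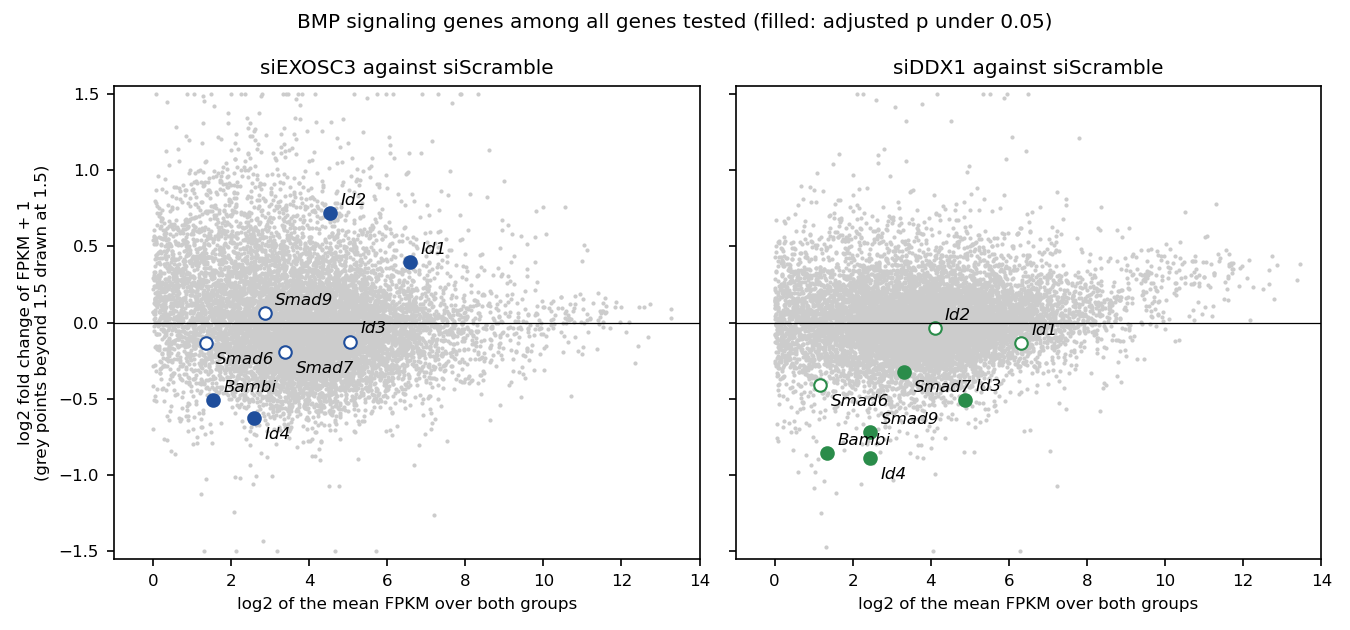
Log2 fold change of FPKM + 1 (vertical axis) against log2 of the mean FPKM over both groups (horizontal axis) for all genes tested, in gray, with the members in color. Filled circles are members with an adjusted p under 0.05. In siDDX1, Id4, Bambi and Smad9 lie near the lower edge of all genes, at ranks 18, 22 and 51 from the lowest.

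Bambi, the pseudoreceptor, was among the lower genes of those tested. Its scramble values were 3.54, 3.33 and 3.90 FPKM in the siEXOSC3 table, and the siEXOSC3 values were 2.34, 2.27 and 2.07 FPKM. All 3 siEXOSC3 libraries were below all 3 scramble libraries. Bambi fell from 3.59 ± 0.289 to 2.22 ± 0.141 FPKM (SD, n = 3) at a log2 fold change of -0.51 (SE 0.0957, limma adjusted p = 0.00687). It stayed called with any 1 library left out, with an adjusted p of at most 0.0350.

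Against DDX1 depletion, Bambi stood at 3.51, 3.31 and 3.86 FPKM in scramble and at 1.27, 1.3 and 2.05 FPKM in siDDX1. The groups did not overlap, and replicate 3 was the highest of the siDDX1 libraries. Bambi fell from 3.56 ± 0.278 to 1.54 ± 0.441 FPKM (SD, n = 3) at a log2 fold change of -0.85 (SE 0.133, limma adjusted p = 0.010). The call was lost without scramble replicate 1 (limma adjusted p = 0.0588) and without scramble replicate 3 (limma adjusted p = 0.0576).

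The Id genes, direct targets of SMAD1, SMAD5 and SMAD9, did not move as 1 group. Id1, the highest member, was at 83.8, 75.1 and 88.4 FPKM in scramble and at 104, 113 and 108 FPKM in siEXOSC3. Every siEXOSC3 library was above every scramble library. Id1 rose from 82.5 ± 6.75 to 108 ± 4.47 FPKM (SD, n = 3) at a log2 fold change of 0.39 (SE 0.0763, limma adjusted p = 0.00750). For DDX1 the scramble values were 83.2, 74.5 and 87.4 FPKM and the siDDX1 values 64.2, 62.4 and 102 FPKM. Replicates 1 and 2 were below scramble and replicate 3 above it, and the log2 fold change was -0.13 (limma adjusted p = 0.635). Without siDDX1 replicate 3 it was -0.36 (limma adjusted p = 0.00574).

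Id2 was at 15.4, 19.8 and 16.9 FPKM in scramble and at 29.7, 27.1 and 30.4 FPKM in siEXOSC3. The groups were well apart. Id2 rose to 167% ± 9.91 (SD, n = 3) of scramble, a log2 fold change of 0.72 (SE 0.0966, limma adjusted p = 0.00232), higher than 96.3% of all genes tested. Id1 and Id2 stayed called in siEXOSC3 in all 6 fits that left out 1 library. In siDDX1 Id2 read 16.9, 20.8 and 13.2 FPKM against 15.3, 19.7 and 16.7 FPKM in scramble. These groups overlapped, with a log2 fold change of -0.03 and a 95% interval from -0.39 to 0.32 (limma adjusted p = 0.903).

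Id3 was at 34.5, 30.0 and 40.2 FPKM in scramble and at 33.4, 34.6 and 27.4 FPKM in siEXOSC3. The groups overlapped, with a log2 fold change of -0.13 and a 95% interval from -0.40 to 0.15 (limma adjusted p = 0.444). In the siDDX1 table it was at 34.2, 29.7 and 39.7 FPKM in scramble and at 23.9, 23.7 and 24.1 FPKM in siDDX1. The siDDX1 libraries lay close together and below all scramble libraries. Id3 fell to 69.1% ± 0.512 (SD, n = 3) of scramble, a log2 fold change of -0.51 (SE 0.0974, limma adjusted p = 0.0188). The call was lost without siDDX1 replicate 1 (0.0575) or 2 (0.0660) and without scramble replicate 1 (0.0877) or 3 (0.0602), all limma adjusted p.

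Id4, the lowest of the 4 Id genes, was at 6.94, 7.02 and 8.42 FPKM in scramble and at 4.85, 5.70 and 3.17 FPKM in siEXOSC3. The groups did not overlap, and the siEXOSC3 libraries were spread widely. Id4 fell from 7.46 ± 0.834 to 4.57 ± 1.28 FPKM (SD, n = 3) at a log2 fold change of -0.62 (SE 0.167, limma adjusted p = 0.0232). This call was lost in 4 of 6 fits, without siEXOSC3 replicate 1 (0.0544) and without scramble replicate 1 (0.0607), 2 (0.0546) or 3 (0.0909), all limma adjusted p. Beside siDDX1, Id4 was at 6.88, 6.96 and 8.32 FPKM in scramble and at 3.55, 3.32 and 3.71 FPKM in siDDX1. Here the siDDX1 libraries lay close together. Id4 fell from 7.39 ± 0.809 to 3.53 ± 0.194 FPKM (SD, n = 3) at a log2 fold change of -0.89 (SE 0.0941, limma adjusted p = 0.00407), and stayed called in all 6 fits.

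FPKM is a level per length, so the Id genes can be set side by side within a library. In scramble the order was Id1, Id3, Id2 and Id4 in all 3 libraries, with no overlap between neighbors. The same order held in 2 of 3 siEXOSC3 libraries, and in replicate 3 Id2 (30.4 FPKM) lay above Id3 (27.4 FPKM). The summed level of the 4 genes was 142 ± 11.1 FPKM (SD, n = 3) in scramble and 174 ± 5.70 FPKM (SD, n = 3) in siEXOSC3. In the siDDX1 table the sum was 141 ± 10.7 FPKM (SD, n = 3) in scramble and 109, 110 and 143 FPKM in siDDX1 replicates 1, 2 and 3. Id4 made up 5.24% ± 0.277 (SD, n = 3) of the sum in scramble, 2.62% ± 0.667 (SD, n = 3) in siEXOSC3 and 2.96% ± 0.336 (SD, n = 3) in siDDX1.

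Of the inhibitory SMADs, Smad7 was called only in siDDX1, and the difference between the depletions was not tested. Smad7 was at 11.2, 11.2 and 11.3 FPKM in scramble and at 9.46, 9.65 and 10.0 FPKM in siEXOSC3. The groups did not overlap, but the adjusted p missed the threshold (log2 fold change -0.19, 95% interval -0.34 to -0.04, limma adjusted p = 0.0562). In siDDX1 it was at 8.40, 9.03 and 8.69 FPKM, against 11.2, 11.1 and 11.1 FPKM in scramble. Smad7 fell to 78.3% ± 2.81 (SD, n = 3) of scramble, a log2 fold change of -0.32 (SE 0.0663, limma adjusted p = 0.0230). The call held in 1 of 6 fits with a library left out. It was lost without siDDX1 replicate 1 (0.0712) or 2 (0.0654) and without scramble replicate 1 (0.107), 2 (0.0750) or 3 (0.0940), all limma adjusted p.

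Smad6 was the other low member, at 2.35, 2.62 and 3.19 FPKM in scramble and at 2.98, 2.48 and 1.77 FPKM in siEXOSC3. These groups overlapped (log2 fold change -0.13, limma adjusted p = 0.517). In the siDDX1 table it was at 2.33, 2.60 and 3.15 FPKM in scramble and at 1.41, 1.97 and 1.98 FPKM in siDDX1. The groups did not overlap, with a log2 fold change of -0.41 (SE 0.128) and a limma adjusted p of 0.0763. Without siDDX1 replicate 3 the limma adjusted p was 0.0288.

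Smad9, which encodes a receptor-activated SMAD and is also listed among the BMP targets, was at 6.84, 7.33 and 7.06 FPKM in scramble and at 7.75, 7.86 and 6.71 FPKM in siEXOSC3. The groups overlapped, with a log2 fold change of 0.06 and a 95% interval from -0.13 to 0.25 (limma adjusted p = 0.598). In the siDDX1 table it was at 6.78, 7.28 and 6.98 FPKM in scramble and at 3.95, 4.19 and 3.51 FPKM in siDDX1. The siDDX1 libraries were far below scramble. Smad9 fell from 7.01 ± 0.248 to 3.88 ± 0.348 FPKM (SD, n = 3) at a log2 fold change of -0.72 (SE 0.0854, limma adjusted p = 0.00540), and stayed called in all 6 fits. Its neighbors read -0.08 (Alg5, limma adjusted p = 0.381) and -0.01 (Rfxap, limma adjusted p = 0.955) in siDDX1 on the log2 scale. In siEXOSC3, Alg5 read -0.0036 (limma adjusted p = 0.981), and Rfxap fell from 9.80 to 7.71 FPKM (log2 fold change -0.31, limma adjusted p = 0.0358). Bmp4, the only ligand among the members, was listed at 0 in all 12 columns of the tables and could not be tested. An exact 0 in these tables can be a failed estimate, so it does not show that the gene is not expressed.

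**Figure D3:**
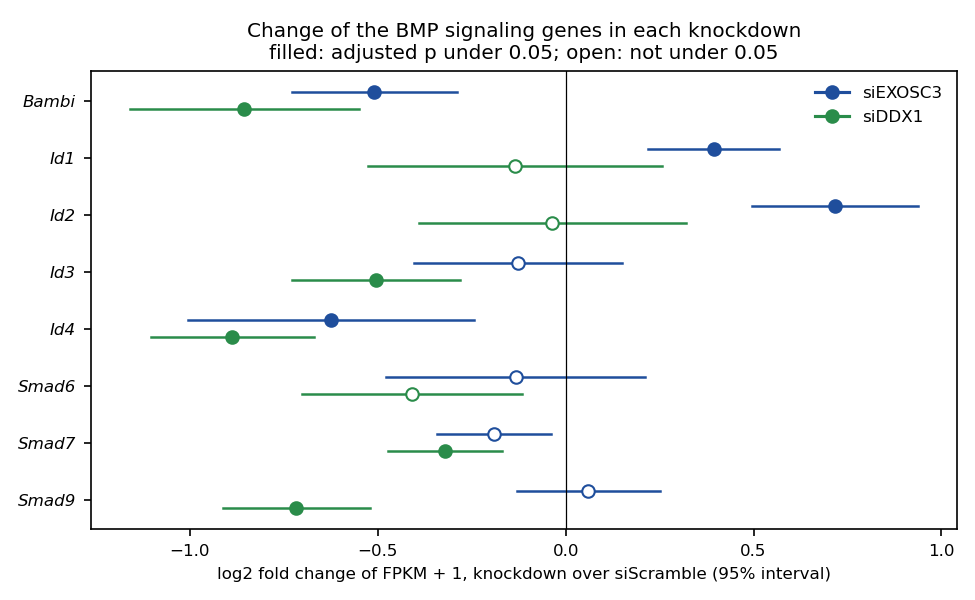
Log2 fold change of FPKM + 1 of each member in siEXOSC3 (blue) and siDDX1 (green) against scramble, with the 95% interval of the limma fit. Filled circles have an adjusted p under 0.05. Bambi and Id4 lie left of 0 in both, and Id1 and Id2 lie right of 0 in siEXOSC3, at 0.39 and 0.72.

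**Figure D4:**
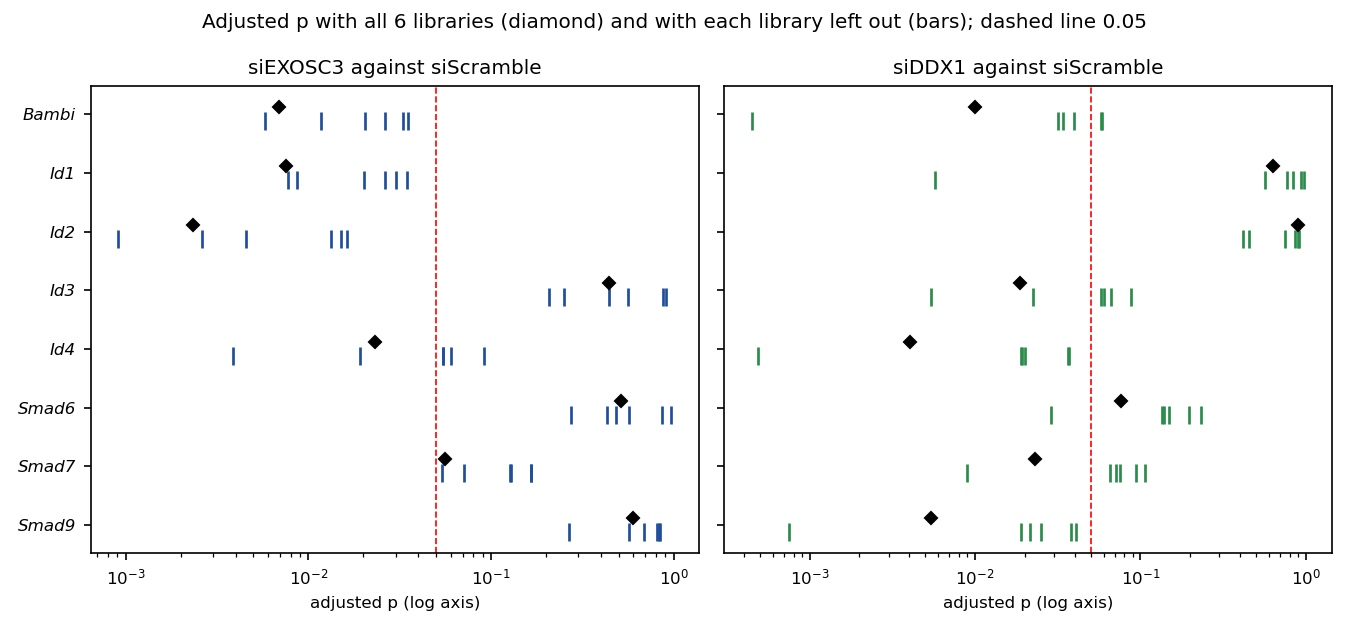
Adjusted p (log axis) of each member with all 6 libraries (diamond) and in the 6 fits that each left out 1 library (bars), with a dashed line at 0.05. Bambi, Id1 and Id2 in siEXOSC3 and Id4 and Smad9 in siDDX1 have every bar left of the line.

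The other genes of the pathway were taken from 9 lists by role, 80 genes beside the 9 members. In siEXOSC3, 37 of them were tested, and 6 rose and 7 fell, where 16.7% and 15.7% of all genes did. In siDDX1, 38 were tested, and 2 rose and 3 fell, where 5.61% and 5.03% of all genes did. These counts are near the background. With any 1 library left out, 3 of the 13 calls in siEXOSC3 held in all 6 fits (Fst, Smad3 and Tob2), and 1 of the 5 in siDDX1 (Tgfb2).

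None of the 15 BMP ligands reached the minimum in either table. The highest in scramble was Bmp8b, at 0.130 FPKM, and 7 ligands, Bmp4 included, were listed at 0 in every library, with the same limit on an exact 0 as for Bmp4. Receptors were present. Of 11 receptors and co-receptors, 6 were tested, and Bmpr2, the type II BMP receptor, was the highest at 30.3 FPKM in scramble. In siEXOSC3 Bmpr2 rose to 34.4 FPKM (log2 fold change 0.18, limma adjusted p = 0.0459), a call lost whichever library was left out (limma adjusted p 0.0556 to 0.142). Acvr1, a type I receptor, fell from 8.50 to 6.52 FPKM (log2 fold change -0.34, limma adjusted p = 0.0228). That call was lost without siEXOSC3 replicate 1 (0.0825) and without scramble replicate 1 (0.103) or 2 (0.0590), all limma adjusted p. In siDDX1 limma called 0 of the 6, and 0 passed an unadjusted p under 0.05. Without siDDX1 replicate 3, Bmpr2 was called there, with a log2 fold change of -0.20 (limma adjusted p = 0.0358, against 0.291 with all libraries).

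Among the 4 receptor-activated and common SMADs, Smad4, the shared partner, was the highest at 27.7 FPKM in scramble. Smad1 fell in siEXOSC3 from 17.6 to 14.8 FPKM (log2 fold change -0.24, limma adjusted p = 0.0393), a call that held in 1 of 6 fits with a library left out (limma adjusted p 0.0159 to 0.156, lost except without siEXOSC3 replicate 2). It was also lost without the filter (0.0556), after quantile normalization (0.0578) and after median centering (0.0532). In siDDX1 the only one of the 4 to fall was Smad9, and Smad1 had a log2 fold change of -0.17 (limma adjusted p = 0.118). Smad4 was at 0.16 on the log2 scale in siDDX1 (limma adjusted p = 0.107), and without siDDX1 replicate 3 at 0.20 (limma adjusted p = 0.0290).

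Of the 17 extracellular antagonists and modulators, Fst, which encodes the activin and BMP antagonist follistatin, fell in both depletions. Its scramble values were 7.07, 4.65 and 7.26 FPKM, and its siEXOSC3 values 2.0, 2.51 and 1.71 FPKM. It fell to 32.8% ± 6.40 (SD, n = 3) of scramble in siEXOSC3, a log2 fold change of -1.24 (limma adjusted p = 0.00212). In siDDX1 it was at 2.77, 3.45 and 3.21 FPKM and fell to 50.2% ± 5.54 (SD, n = 3) of scramble, a log2 fold change of -0.79 (limma adjusted p = 0.0182). The siDDX1 call was lost without siDDX1 replicate 1 (0.0629) and without scramble replicate 1 (0.0933) or 3 (0.0853), all limma adjusted p. Fstl1, the highest of the list, rose in siEXOSC3 from 28.4 to 40.4 FPKM (log2 fold change 0.47, limma adjusted p = 0.0239). Only 2 of 6 fits with a library left out kept it, those without siEXOSC3 replicate 2 or 3 (limma adjusted p up to 0.0849 in the others).

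All 10 intracellular and membrane inhibitors were tested. In siEXOSC3, 0 rose by limma (1 at an unadjusted p under 0.05) and 3 fell, Tob2, Bambi and Tob1, where 15.7% of all genes fell. In siDDX1, 0 rose by limma (1 at an unadjusted p under 0.05) and 4 fell, Bambi, Tob1, Smad7 and Tob2, where 5.03% of all genes fell. Bambi and Smad7 are also counted among the members. TOB proteins are antiproliferative factors known to bind receptor-activated SMADs. Tob2 fell from 21.5 ± 0.131 to 12.2 FPKM in siEXOSC3 (log2 fold change -0.77, limma adjusted p = 5.22e-04). Tob1 fell from 28.9 to 21.6 FPKM in siDDX1 (log2 fold change -0.40, limma adjusted p = 0.010), a call lost without scramble replicate 1 (0.0658) or 3 (0.0544). In siEXOSC3 the log2 fold change of Tob1 was -0.21 (limma adjusted p = 0.0355, called in 1 of 6 fits), and in siDDX1 that of Tob2 was -0.24 (limma adjusted p = 0.0421, called in 1 of 6 fits). Each of these was kept only without replicate 3 of the knockdown. Both missed the threshold after quantile normalization or centering on the median. Skil, the highest inhibitor at 38.4 FPKM in scramble, had log2 fold changes of 0.07 and -0.09 that were not called.

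Of 14 BMP target genes, 10 were tested, 8 of them members. The other 2, Hey1 and Atoh8, were not called in either depletion with all libraries and no replicate block, and Msx1, Msx2, Dlx5 and Nog were listed at 0 in all libraries. Atoh8, a transcription factor gene, had log2 fold changes of -0.64 in siEXOSC3 (limma adjusted p = 0.0662) and -0.43 in siDDX1 (limma adjusted p = 0.170), with overlapping groups in both. Hey1, a Notch and BMP target, lay above scramble in all 3 libraries of both depletions, at 8.91 and 10.5 FPKM in siEXOSC3 (limma adjusted p = 0.0701) and 8.83 and 12.1 FPKM in siDDX1 (limma adjusted p = 0.0904). Without siDDX1 replicate 3, Hey1 was called there at a log2 fold change of 0.56 (limma adjusted p = 0.000924) and Atoh8 at -0.65 (limma adjusted p = 0.00419). Without siEXOSC3 replicate 2, Hey1 was called in siEXOSC3 at 0.26 (limma adjusted p = 0.0310) and Atoh8 at -0.91 (limma adjusted p = 0.00282), where the share of all genes called was 21.2% risen and 22.3% fallen. Of the 3 E proteins bound by ID proteins, limma called 0 in either depletion with all libraries and 0 passed an unadjusted p under 0.05. Without siEXOSC3 replicate 2, Tcf12 was called in siEXOSC3 at -0.23 on the log2 scale (limma adjusted p = 0.0363, against 0.148 with all libraries). Tcf4, the highest, was at 42.4 FPKM in scramble and 45.7 FPKM in siEXOSC3. Of 3 processing proteases tested, Pcsk6 was the highest, at 13.3 FPKM in scramble, and was not called with all libraries (in siEXOSC3 at -0.29 on the log2 scale, limma adjusted p = 0.153). Without siEXOSC3 replicate 2 it was called there at -0.45 (limma adjusted p = 0.00903). Furin, which cleaves BMP precursors, rose in siEXOSC3 from 6.85 to 8.98 FPKM (log2 fold change 0.34, limma adjusted p = 0.0181). The call was lost in 4 of 6 fits, without siEXOSC3 replicate 1 (0.0512) and without scramble replicate 1 (0.0644), 2 (0.0624) or 3 (0.0542).

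In the TGF-beta and activin branch, 9 of 15 genes were tested. In siEXOSC3 the ligand genes Tgfb1 and Tgfb2 rose, and the branch SMAD gene Smad3 and the receptor gene Tgfbr1 fell. Tgfb1 rose from 7.58 to 13.8 FPKM (log2 fold change 0.77, limma adjusted p = 0.0122). Smad3 fell from 7.0 to 4.65 FPKM (log2 fold change -0.50, limma adjusted p = 0.0101). In siDDX1 Tgfb2 was at 22.9, 21.8 and 22.9 FPKM, against 14.5, 14.8 and 14.5 FPKM in scramble. All siDDX1 libraries were above scramble, and Tgfb2 rose with a log2 fold change of 0.59 (SE 0.0592, limma adjusted p = 0.00403). In siEXOSC3 its log2 fold change was 0.35 (limma adjusted p = 0.0144), a call lost without scramble replicate 1 (0.0610) or 3 (0.0536). Tgif1, a corepressor of SMAD signaling, rose in siDDX1 from 41.1 to 61.8 FPKM (log2 fold change 0.55, limma adjusted p = 0.0444). It was called in 1 of 6 fits with a library left out (limma adjusted p 0.000189 without siDDX1 replicate 3, and up to 0.152 in the others), and it was lost without the filter (0.10), after quantile normalization (0.0508) and without the trend (0.0596). In siEXOSC3 the call of Tgfb1 was lost without scramble replicate 1 (0.0534), and that of Tgfbr1 without scramble replicate 1 (0.0749) or 3 (0.0560), all limma adjusted p. In siDDX1 Tgfbr1 had a log2 fold change of -0.18 (limma adjusted p = 0.247), and without siDDX1 replicate 3 of -0.28 (limma adjusted p = 0.0135).

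**Figure D5:**
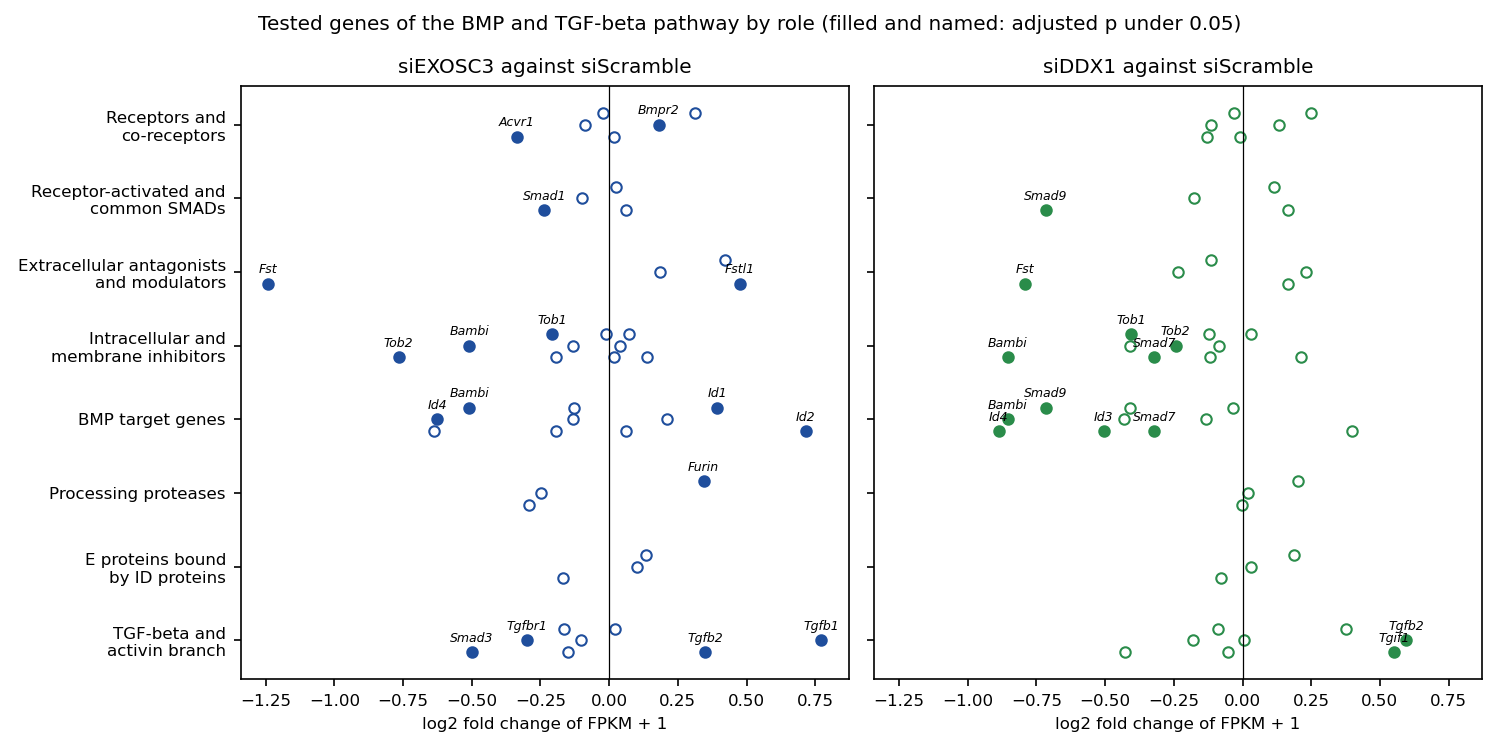
Log2 fold change of FPKM + 1 of tested genes of the BMP and TGF-beta pathway, by role, in siEXOSC3 (left) and siDDX1 (right). Filled, named circles have an adjusted p under 0.05, and a gene on several lists is drawn in each. Fst, Bambi, Tob1 and Tob2 lie left of 0 in both panels.

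The genes whose log2(FPKM + 1) followed Bambi most closely over the 6 libraries of each table were Itga8, Zfp217, Rabif, Zfp760 and Gm5595. Ranked by the smaller of the 2 Pearson correlations over 11054 genes, they had values of 0.988 to 0.982. The nearest members were Smad7 (0.92, rank 198) and Id4 (0.90, rank 319). For Id1 the nearest genes were Dusp8, Snn, Zfp27, Ctnnbip1 and Lrrc8b, with values of 0.968 to 0.956. The tables share the scramble libraries, and with 6 libraries in 2 conditions a gene that differs between the conditions is likely to have a high value.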

How the data were processed

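RNA-seq libraries of N2A cells were used, 3 each for scramble siRNA and for the siRNAs against EXOSC3 and DDX1. The authors removed rRNA with a Ribo-zero kit, made nondirectional libraries, aligned reads to mm9 and deposited FPKM per gene and library. The submitters' processing notes name TopHat2 version 2.1.0, SAMtools and Cuffdiff version 2.2.1. The annotation and library normalization given to Cuffdiff are not given in the sources used here. The DRIP-seq data were not analysed here.

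In each table, genes averaging 1 FPKM or more were tested on the log2(FPKM + 1) scale (intensity trend, no covariates, two-sided) by limma (version 3.58.1, under R 4.3.3). No count model was applied, since FPKM are normalized values. The limma fit was tested on simulated data. Positions came from GENCODE vM1 on NCBIM37. Figures were drawn with matplotlib version 3.10.9. Alternatives were a pseudocount of 0.1, no filter, a minimum of 5 FPKM, quantile normalization, median centering, a fit without the trend, a block for the replicate number, and leaving out each library.

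The members, lists and tests were chosen with earlier results of these data known. All 9 members were named, with Exosc3 and Ddx1. From each list at most 3 called genes per direction and knockdown were named by largest fold change, with the highest gene in scramble, except where a gene is counted with its list but not reported here. The 5 genes closest to Bambi and to Id1 were also named. Hey1, Atoh8, Tcf12, the targets listed at 0, Twsg1, the markers other than Hand2, the neighbors of Smad9 and Id4, and Tob2 in siDDX1 were named after their values were seen. So were the values of named genes in the depletion where the rule did not take them.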

Additional observations from a re-analysis of the deposited data

Results flagged for a closer look

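Smad4, the common SMAD, and Twsg1, an extracellular modulator of BMP ligands, had all 3 libraries of 1 depletion on one side of scramble and all 3 of the other depletion on the opposite side. Separate groups were common among all genes tested. In siEXOSC3, 25.9% lay below and 23.8% above all scramble values, and in siDDX1 17.8% and 17.0%. The share of all genes with opposite sides was not counted. Smad4 had a log2 fold change of -0.10 in siEXOSC3 (limma adjusted p = 0.250) and of 0.16 in siDDX1 (limma adjusted p = 0.107). Its levels were 27.7 and 25.8 FPKM in scramble and siEXOSC3, and 27.4 and 30.9 FPKM in scramble and siDDX1. Twsg1 had a log2 fold change of 0.18 in siEXOSC3 (limma adjusted p = 0.0520) and of -0.24 in siDDX1 (limma adjusted p = 0.0519). Neither gene was called in either depletion with all libraries and the settings used for the comparisons. Twsg1 was called in siEXOSC3 without the filter, at a minimum of 5 FPKM, after quantile normalization and after median centering (limma adjusted p 0.0304 to 0.0473), and without siEXOSC3 replicate 3 (0.0437). In siDDX1 it was called at a minimum of 5 FPKM (0.0472) and with the replicate block (0.0415). Both genes were called in siDDX1 without siDDX1 replicate 3 (limma adjusted p = 0.0290 for Smad4 and 0.00861 for Twsg1). The difference between the depletions was not tested, since the tables were scaled separately and share their scramble libraries.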

How the results depend on the processing

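In siEXOSC3, 2 members rose under every alternative, and 1 rather than 2 fell without the filter, at a mean FPKM of at least 5 (where Bambi was not tested) and with the replicate block. With 1 library left out, 1 to 2 fell. In siDDX1, 0 members rose under any alternative, and 2 to 7 fell with 1 library left out. For all pathway genes in siEXOSC3, 8 rose and 9 fell, against 2 to 8 and 4 to 11 with 1 library left out, and 5 fell with the replicate block. In siDDX1, 2 rose and 8 fell, against 1 risen without the filter, after quantile normalization and without the trend, 4 risen with the replicate block, and 1 to 5 risen and 2 to 15 fallen with 1 library left out. The highest count of fallen pathway genes, 15, came without siDDX1 replicate 3, where 15.4% of all genes fell. The lowest, 2, came without scramble replicate 1 or 3, where 0.522% and 0.586% of all genes fell. With 1 library left out, 9.1% to 21.2% of all genes rose and 5.17% to 22.3% fell in siEXOSC3. In siDDX1, 0.856% to 16.4% rose and 0.522% to 15.4% fell. The calls of all genes thus moved along with the pathway counts. The cause of these shifts was not tested.

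It is not known whether the replicate numbers pair the libraries, and the comparisons were fitted without a replicate block. Deviations of same-numbered libraries correlated at 0.035, -0.310 and -0.126 in siEXOSC3 and at -0.012, 0.379 and 0.372 in siDDX1. Each siEXOSC3 library correlated best with a scramble library of another number. The same held for siDDX1 replicate 1, whereas siDDX1 replicates 2 and 3 correlated best with their own number. With the replicate block, 1390 genes rose and 1059 fell in siEXOSC3 (1877 and 1767 without it), and 1085 and 808 in siDDX1 (623 and 559 without it). Id4 in siEXOSC3 was then at a limma adjusted p of 0.0556 and Smad6 and Atoh8 in siDDX1 at 0.0352 and 0.0444. The block also ended the siEXOSC3 calls of Bmpr2 (0.117), Acvr1 (0.0576), Smad1 (0.0966) and Tob1 (0.0864). Without the filter, Id4 in siEXOSC3 was at 0.0636, Fstl1 in siEXOSC3 at 0.0589 and Fst in siDDX1 at 0.0561.

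Directions turned only for changes that were not called. Ddx1 in siEXOSC3 was at -0.0058 after quantile normalization. With 1 library left out, log2 fold changes in siEXOSC3 ran from -0.045 to 0.040 for Ddx1, from -0.25 to 0.0083 for Smad6 and from -0.32 to 0.011 for Tgif1. In siDDX1 they ran from -0.19 to 0.13 for Id2, from -0.017 to 0.091 for Furin and from -0.095 to 0.037 for Smad3. Over 28 genes (the members, Exosc3, Ddx1 and the genes taken from the lists by rule) and these alternatives, 614 values kept direction and side of the threshold, 87 lost a call, 10 gained one and 10 turned. Without counts in the tables, the depth behind low members such as Bambi and Smad6 is unknown.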
